A study of Homo sapiens with 2 samples.

Results

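The regions described here are runs of closely spaced GATA2 peaks with high scores on the human autosomes, in LNCaP cells. They were chosen by spacing and by score from 1 deposited peak list. Autosomal peaks were ordered by midpoint, neighbours no more than 12.5 kb apart were linked, and a linked set was kept when it held 5 or more peaks and its median score was 200 or more. This gave 64 runs with 361 member peaks, out of 35488 autosomal peaks and 36797 peaks in the whole list, so 1.02% of autosomal peaks were members. Because spacing and score chose the runs, the values of both below are a description of what was chosen and no test was made on them.

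LNCaP is an established, androgen-responsive line of prostate cancer cells. All cells carried the same treatment: growth in RPMI with 10% FBS, then RPMI with 5% charcoal-treated FBS for the last 3 days, which leaves little steroid hormone. GATA2-bound DNA was isolated with an antibody and sequenced in 2 replicates of 1 group, and no other condition or control library was used here. The list holds 1 score per peak for the whole series, so no value has a replicate error, depth is unknown, and intervals below cover counting over peaks or runs only. Peaks of 1 run share a locus and are not independent. A bulk line of 1 origin is also a limit: the positions describe LNCaP, and no expression was measured against which the cell type could be checked.

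GATA2 is a zinc-finger transcription factor that binds short sites with the core GATA. In prostate cells it is known to bind enhancers together with the forkhead factor FOXA1 and the androgen receptor, and it is also known for its part in blood stem cells. Regulatory regions of strongly expressed genes often hold several binding sites side by side, and a linking distance of this size is commonly used to join neighbouring enhancers into larger units. No histone mark or transcript was measured here, so the regions are called runs of peaks only.

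Most runs held the smallest number of peaks that the rule allows. Of the 64 runs, 48 had 5 peaks, 6 had 6, 5 had 7 and 2 had 8, and there was 1 run each of 9, 11 and 14 peaks. Their median length was 26.6 kb (95% interval of the median 24.4 to 29.5 kb), from 7.38 to 60.9 kb. In all, 49 runs were 20 to 40 kb long, 9 were shorter and 6 were longer. Together they spanned 1809 kb, and within a run the peaks themselves covered a median of 6.98% of the length. The runs are thus mostly sequence without a called peak.

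**Figure D1:**
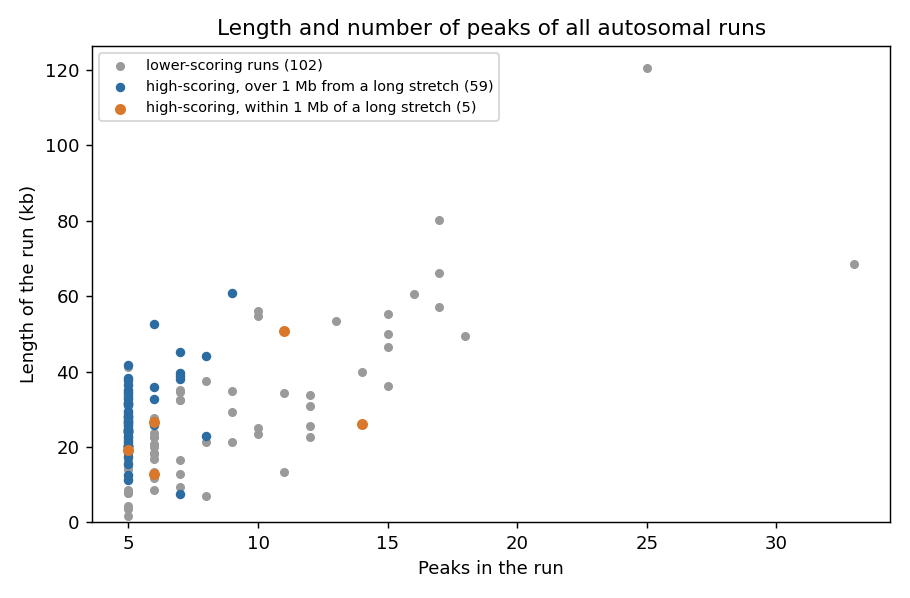
Number of peaks (horizontal axis) and length in kb (vertical axis) of all 166 autosomal runs of 5 or more peaks, 1 point per run: 102 lower-scoring runs in grey, 59 high-scoring runs over 1 Mb from a long peak-free stretch in blue and 5 within 1 Mb of one in orange. The high-scoring runs end at 14 peaks and 60.9 kb, while lower-scoring runs reach 33 peaks and 120.5 kb.

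Neighbouring members lay a median of 5.91 kb apart (95% interval 5.25 to 6.61 kb, 297 distances between midpoints), and the middle 50% of distances ran from 2.80 to 8.88 kb. The 102 autosomal runs of 5 or more peaks with a median score under 200 were more tightly packed, with a median distance of 3.00 kb (95% interval 2.64 to 3.45 kb, 687 distances). Runs with many peaks give more of these distances. With 1 median distance per run, the middle value was 5.94 kb (5.67 to 6.74 kb) for high-scoring runs. For lower-scoring runs it was 3.49 kb (2.80 to 4.03 kb). Both sets include runs beside long peak-free stretches, counted below. Distances under 1 kb made up 8.08% of those in the high-scoring runs (24 of 297, Wilson 95% interval 5.49% to 11.7%) and 24.7% of those in the lower-scoring runs (170 of 687, Wilson 95% interval 21.7% to 28.1%). At the other end, 51 of the 297 distances were 10 kb or more, so many runs were held together by a link close to the limit, and the longest link was 12.4 kb. The next peak outside a run lay a median of 30.7 kb away on the nearer side. It was within 15 kb for 8 runs and 326 kb away for the most isolated run, chr5:140070953-140106020.

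High-scoring runs were a minority of long runs. Among linked sets of 2 peaks, 64.9% had a median score of 200 or more (2801 of 4313, Wilson 95% interval 63.5% to 66.4%). The share was 55.3% for sets of 3 (536 of 969, 52.2% to 58.4%). It was 58.1% for sets of 4 (144 of 248, 51.8% to 64.0%) and 49.5% for sets of 5 (48 of 97, 39.7% to 59.3%). It was 28.6% for sets of 6 (6 of 21) and 20.8% for sets of 7 or more (10 of 48, 11.7% to 34.3%). Of lone peaks, 54.7% scored 200 or more. Without peaks within 1 Mb of a peak-free stretch longer than 2.5 Mb, the share was 56.2% for sets of 3, 60.2% for sets of 4 and 59.5% for sets of 5 (47 of 79, 48.5% to 69.6%). It was 23.5% for sets of 6 (4 of 17, 9.56% to 47.3%) and 29.6% for sets of 7 or more (8 of 27, 15.9% to 48.5%). Within 1 Mb of such a stretch lay 38 of the 102 lower-scoring runs and 5 of the 64 high-scoring runs. Sequence outside the first and last peak of a chromosome does not count as a stretch, so these can be undercounts. The median of an even-sized set is the mean of its middle 2 scores, so shares of even and odd sizes are not directly comparable. Its part in the higher shares of sets of 2 and 4 was not tested, and no trend is read from them. Over all autosomal peaks, the odd sizes 1, 3 and 5 had 54.7%, 55.3% and 49.5%. With or without peaks beside long stretches, the share was lowest in sets of 6 or more. The part of these stretches in that was not tested further.

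The 3 runs just above the score limit were chr6:28908719-28921188 with a median score of 202, chr10:115657843-115687368 with 207 and chr11:51567247-51593391 with 209. The 3 just below it were chr4:80266989-80274625 with 199, chr1:217882244-217902896 with 198 and chr14:30203514-30227309 with 198. The limit therefore cuts through a continuous range of medians. On the count of peaks, 144 linked sets of 4 passed the score limit and stayed outside.

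Runs were found on 20 of the 22 autosomes. Chromosome 1 held 11 with 64 members, chromosome 5 held 7 with 42, chromosome 12 held 6 with 30, and chromosomes 2, 10 and 11 held 5 each. These counts are not set against the number of peaks on each chromosome, so they do not show where runs are more frequent. Chromosomes 19 and 21 held none. On chromosome 19, 0 of 483 peaks were members, which allows a share of up to 0.621%, and on chromosome 21, 0 of 574 peaks allow up to 0.523%. The share over all autosomes was 1.02%, and since members come in groups of 5 or more these limits are too tight. They do not show that members are rarer on these chromosomes. Chromosomes X and Y are outside the rule. They held 14 runs of 5 or more peaks, of which 1, on X, had a median score of 200 or more.

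Within a run, scores differed widely. The score is the peak caller's own value, has no stated unit and is used here only to rank and describe peaks. Ratios of scores are likewise description only. The lowest member scored 80.3, so members under 100 lie close to the lowest scores. Members scored 271 at the median (middle 50% from 152.5 to 441), against 214 for all autosomal peaks. Very high scores were about as frequent as in the whole list. Of the members, 9.70% were among the best-scoring 10% of autosomal peaks (35 of 361), and 4.43% scored 1000 or more against 3.79% of all autosomal peaks. Members under 100 made up 9.42% (34 of 361), against 11.7% of autosomal peaks. Runs of high median also held low-scoring peaks: 26 of the 64 runs held at least 1 member under 100, and only 2 runs had every member at 200 or more. Among the 48 runs of 5 peaks, 26 had exactly 3 members at 200 or more, the fewest the rule permits, and 20 had 4. These counts per run were not set against sets of ordinary autosomal peaks of the same size. They describe the chosen runs and do not show a trait particular to them.

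**Figure D2:**
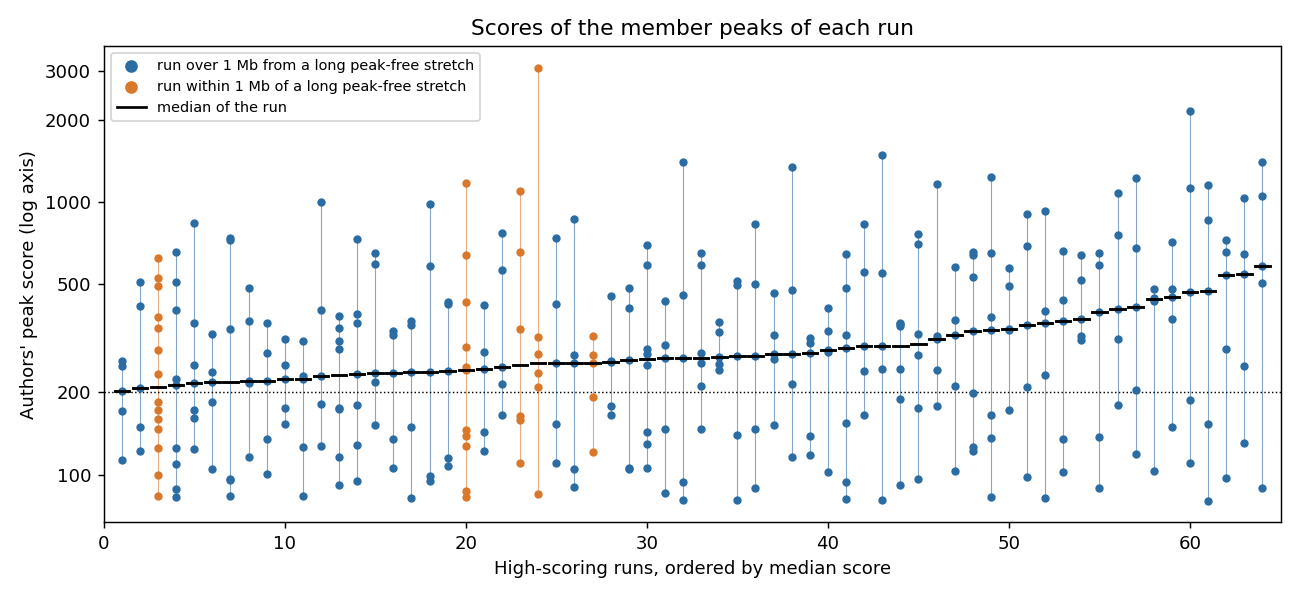
Scores of all 361 members (vertical log axis, authors' score), 1 column per run ordered by the run's median (black bar), in blue for runs over 1 Mb from a long peak-free stretch and orange for the 5 within 1 Mb of one. The dotted line marks the limit of 200, and all but 2 runs reach below it.

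The even runs were chr11:9845469-9868338 and chr13:70797088-70822653, in which no member was under 200. The first had scores of 311, 321, 637, 515 and 372 in coordinate order. The other had 332, 242, 253, 269.5 and 363, with the highest peak 1.09 times the second. A run of 6 on chromosome 4, chr4:79802145-79838062, held 3 neighbours of nearly equal score (358, 355 and 349) beside members of 91.4, 189 and 245.

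Over all runs the highest member scored a median of 1.34 times the second (95% interval 1.22 to 1.495). In 26 of 64 runs it was under 1.25 times the second, so no member led by much. In 9 runs it was at least 2 times the second. The steepest run away from a long peak-free stretch was chr10:29411796-29439204, where 1 peak of 1156 (chr10:29430636-29431083) stood among members of 241, 321, 315 and 179. Next to it by this ratio stood chr12:50569300-50596021, where the ratio was 3.13. It was followed by chr1:120308351-120329318, only 1.16 Mb from a long stretch, where a peak of 1403 had neighbours of 94.3, 267, 456 and 80.8. All of these are runs by spacing in which 1 peak scored far above the others.

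The highest peak lay in the interior of some runs and at an end of others. It lay at an end of the run in 26 of 64 runs (40.6%, Wilson 95% interval 29.5% to 52.9%), and end positions made up 35.5% of all member positions. The lowest peak lay at an end in 30 of 64 runs (46.9%, 35.2% to 58.9%). The median was 255 for end members (95% interval 224 to 304) and 275 for interior members (250.2 to 315). The order of scores was not used by the rule, and the intervals overlapped. In the 48 runs of 5 peaks, the highest peak was in position 1 in 8 runs, position 2 in 4, position 3 in 12, position 4 in 13 and position 5 in 11. Median scores from position 1 to 5 were 289, 243, 305, 365 and 236. The order follows the chromosome coordinate and has no strand, so positions 1 and 5, and 2 and 4, are equivalent by construction.

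**Figure D3:**
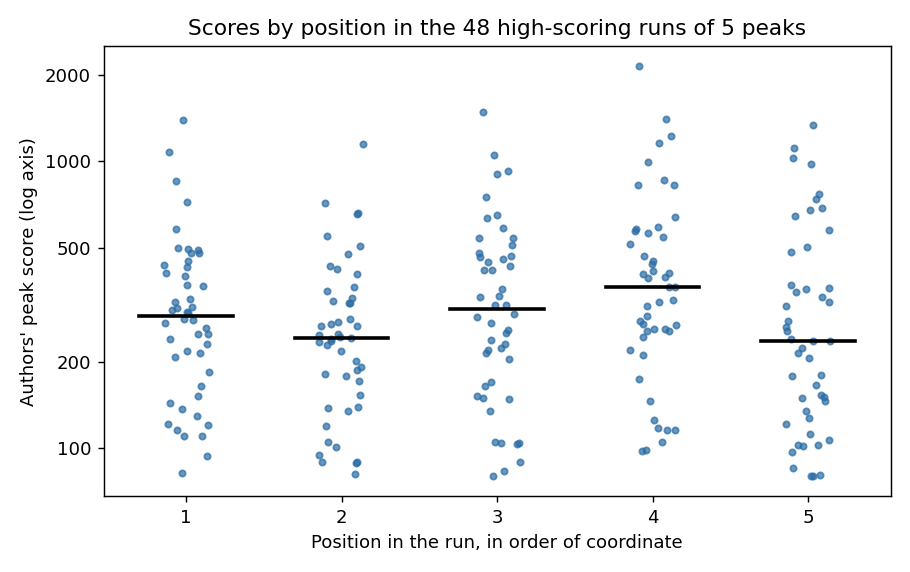
Scores (vertical log axis, authors' score) at positions 1 to 5, in order of coordinate, in the 48 high-scoring runs of 5 peaks, with 1 point per member and a black bar at the median. The points at each position spread over most of the score range, and the medians lie between 236 and 365.

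Neighbours inside runs often had unequal scores at every distance. Of the 24 neighbouring members under 1 kb apart, 20 had a lower-scoring partner under 200, and the median of the lower scores was 123 (95% interval 94.5 to 164). Away from long peak-free stretches it was 13 of 17. For the 122 neighbours 5 to 10 kb apart, 67 had a partner under 200 and the median of the lower scores was 173 (147 to 220.3). The number was 63 of 100 at 1 to 5 kb and 29 of 51 at 10 kb or more. The ratio of higher to lower score was 2.09 (1.71 to 4.16) under 1 kb and 2.37 (1.93 to 2.85) at 5 to 10 kb, so it did not separate them. It was 1.86 at 1 to 5 kb and 1.98 at 10 kb or more. The closest members lay 33 bp apart from edge to edge. Whether such close members are separate sites or 1 enriched region called in parts was not tested. Merging peaks under 500 bp apart left 55 runs with 315 members.

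The longest run away from long peak-free stretches, by length and by number of peaks, was chr5:90152674-90213550. It held 9 peaks over 60.9 kb with scores of 125, 402, 109.6, 83.0, 656, 507, 88.2, 212 and 224. Its highest peaks, chr5:90183189-90183592 and its neighbour 6.10 kb away, sat in the interior with low members on either side. By general knowledge of the hg19 map, this run lies in ADGRV1, which encodes a very large adhesion receptor known from hearing. The next longest of all runs, chr17:7117920-7170473, held 6 peaks over 52.6 kb with scores of 279, 651, 256, 147, 585 and 211.

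A run of 8 peaks, chr1:239880389-239924407, spanned 44.0 kb with scores of 693, 289, 129, 106, 588, 277, 144 and 253. It had high peaks of similar score, 20.5 kb apart, each followed by lower ones. By the same knowledge it lies in CHRM3, the gene of the muscarinic acetylcholine receptor M3. Another run of 8, chr5:99382055-99405044, was compact at 22.99 kb, with a median distance of 1.31 kb and no score above 380.

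Among runs of 7 peaks the profiles differed. In chr18:70823277-70868341 scores rose along the coordinate, from 83.0, 136, 338, 377 and 649 to 1235, and then fell to 166. In chr11:34653259-34692904 high members stood at both sides of a low middle, with scores of 528, 637, 122, 126, 199.5, 653 and 334. This run lies, by general knowledge, at EHF, an ETS-family factor of epithelial cells including those of the prostate. In chr1:224464857-224503636, at the gene NVL for an ATPase of ribosome assembly, high and low members alternated: 729, 179.6, 387, 128, 361, 234.5 and 94.4. In chr1:144496380-144534301 the scores were 93.75, 644, 81.0, 484, 154, 325 and 292.

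**Figure D4:**
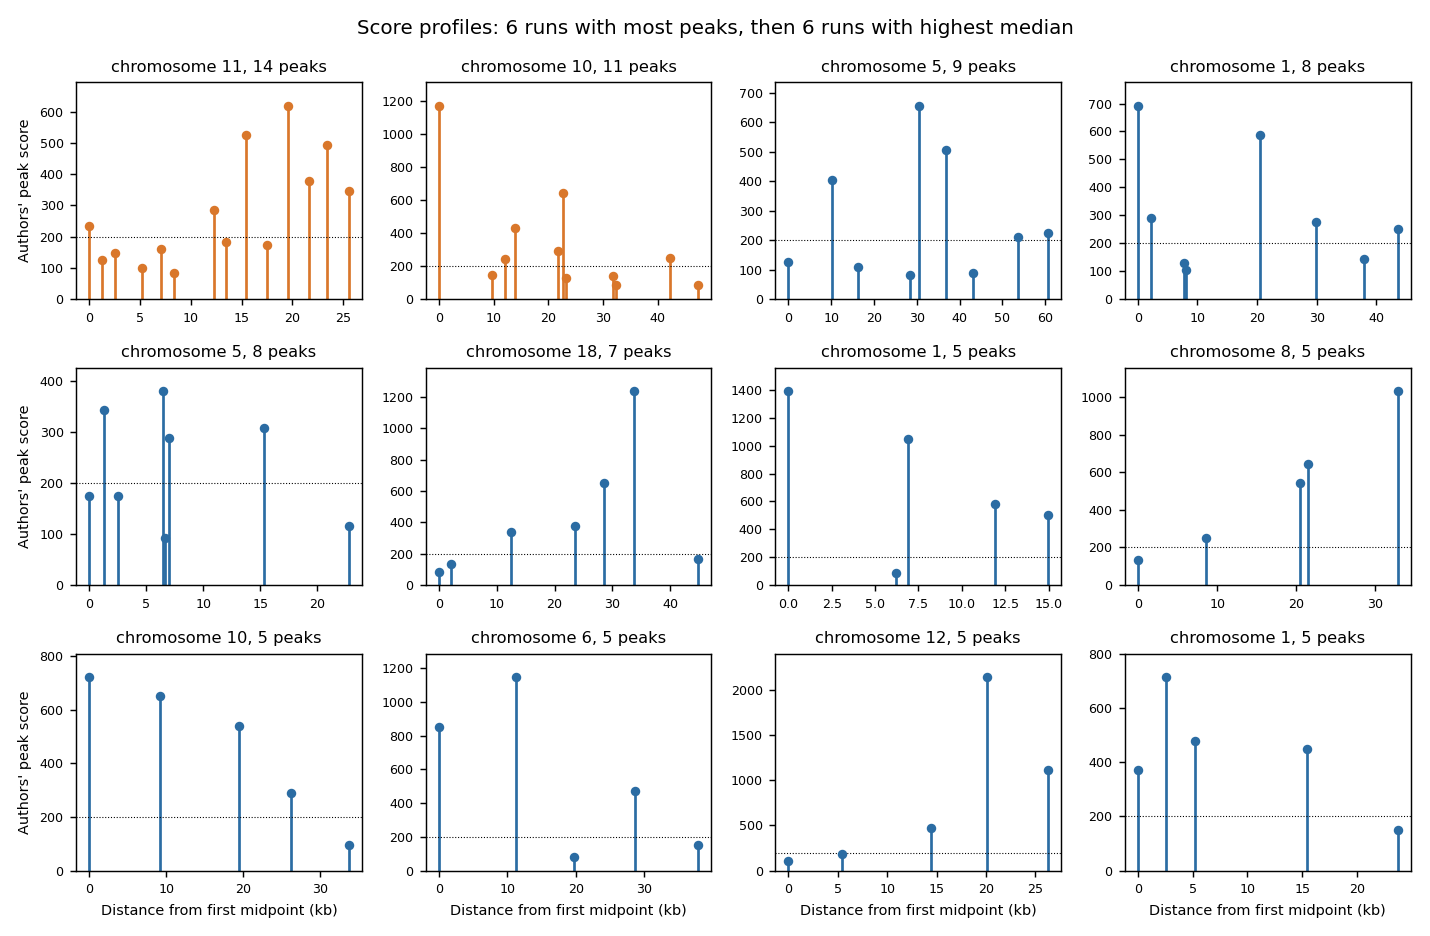
Score (vertical axis, authors' score, from 0) against distance in kb from the first midpoint for 12 runs, first the 6 with most peaks and then the 6 with the highest median; blue and orange as before, and the dotted line marks 200. Profiles rise, fall, alternate or have high peaks apart from each other, for example the rise from 130 to 1032 on chromosome 8 and the fall from 722 to 97.3 on chromosome 10.

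The run with the highest median, 581, was chr1:207489817-207505179. Its 5 peaks scored 1393, 88.9, 1053, 581 and 502 over 15.4 kb. It was the only run away from long peak-free stretches, other than that on chromosome 12 described next, with more than 1 member at 1000 or more. By general knowledge it lies at CD55, which encodes decay-accelerating factor, a cell-surface regulator that protects cells from complement.

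The run chr12:81768799-81795687 had a median of 467.5 and held the highest-scoring member outside the 5 runs beside long stretches. Its scores were 110.0, 187, 467.5, 2144 and 1118 in coordinate order. Its 3 best peaks were also wide, at 936, 973 and 996 bp, against a median of 331 bp for all members. The run lies, by general knowledge, in PPFIA2, a gene of the liprin family of scaffold proteins. On chromosome 8, the run chr8:62926508-62959687 rose steadily with scores of 130, 250.2, 541, 643 and 1032. On chromosome 10, the run chr10:111736332-111770430 fell steadily with 722, 653, 539, 289 and 97.3.

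In chr1:97634644-97658677, within DPYD, the gene of the first enzyme of pyrimidine breakdown, scores were 372, 714, 478, 449 and 149. In chr11:33281355-33312928, at the kinase gene HIPK3, 4 members had nearly the same score (478, 431, 445 and 441) and the last had 103. In chr2:54777447-54812032, within the spectrin gene SPTBN1, scores were 137, 89.4, 586, 393 and 647. The runs chr6:140363605-140401947, chr12:102389545-102426042 and chr5:119409373-119441142 each had a peak above 1000, at 1148, 1223 and 1076. In all, 14 of the 64 runs had a highest peak of 1000 or more, 3 of them beside long peak-free stretches.

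At TRPM8, the gene of a cold- and menthol-gated channel known as androgen-regulated in prostate epithelium, the run chr2:234831193-234862329 held 5 peaks over 31.1 kb. Their scores were 493, 172, 341, 572 and 338, so 4 of 5 were above 300, and the widths ran from 248 to 411 bp. TRPM8 and EHF are in the lists of androgen-responsive and prostate genes of interest. The gene lists (6 lists, 147 genes) could not be matched as a whole without an hg19 annotation. How many listed genes have a run beside them, and how many have none, is therefore not known. Chromosomes 19 and 21 held no run, so no listed gene there has one. A run singled out after its values were seen, chr11:100962520-100990415, lies in PGR, the progesterone receptor gene, with scores of 481, 364, 219, 116 and 216.

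At PRKD1 on chromosome 14, the block from 30 to 31 Mb held 1 of these runs, chr14:30356418-30376624, with scores of 209, 355, 904, 98.2 and 687, and a member 2177 bp wide. On chromosome 3, from 174 to 179 Mb, 1 run lay at NAALADL2 (chr3:174654470-174681035, scores 499, 272, 89.5, 829 and 147). The histone and MHC side of chromosome 6p, from 26 to 29 Mb, also held 1, the run just above the limit, and the block of chromosome 5 from 69 to 71 Mb held 0.

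Width gave a second view of the members. The median member was 331 bp wide (95% interval 314 to 343 bp), all autosomal peaks 295 bp and members of lower-scoring runs 238 bp (221 to 251 bp). Since wider peaks score higher, each width was also divided by the median width of the 201 autosomal peaks nearest in score. By this ratio members were close to other peaks of their score, with a median of 1.05 (95% interval 1.02 to 1.08). Under 0.5 times the usual width were 8 members, and 17 were over 2 times. Of these 25, 14 were in the 5 runs beside long stretches, which held 42 of the 361 members.

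**Figure D5:**
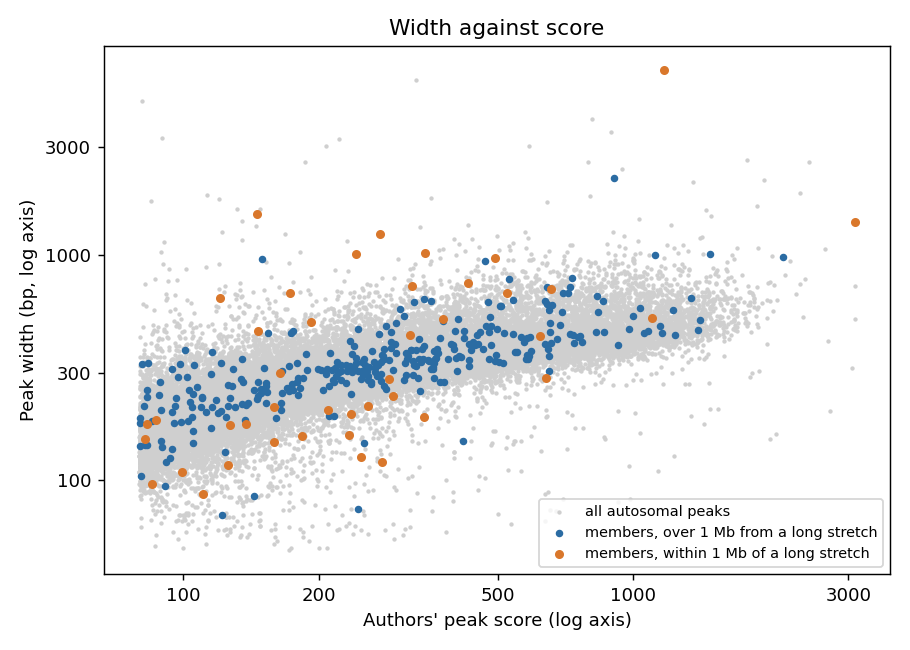
Width in bp (vertical log axis) against authors' score (horizontal log axis) for all 35488 autosomal peaks in grey, members of runs over 1 Mb from a long peak-free stretch in blue and members of the 5 runs within 1 Mb of one in orange. Blue points mostly follow the grey band, while orange points scatter above and below it, with 1 member at 6580 bp.

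Those 5 runs stood apart. They are chr1:121458738-121485438, chr10:42383244-42434057, chr10:42527170-42546455, chr11:51567247-51593391 and chr20:26188666-26201563. They included the runs with most peaks, 14 on chromosome 11 and 11 on chromosome 10, and all 5 held a member under 0.5 or over 2 times the usual width. In the first, the last peak had the ceiling score of 3100, 9.73 times the second, beside members of 235, 276, 85.2, 209.8 and 319. In the run of 11 the first peak was 6580 bp wide with a score of 1171. The run on chromosome 20 packed 5 of its 6 peaks into distances of 0.261 to 0.656 kb, with widths from 87 to 523 bp. Such stretches include the centromere gaps of hg19, and no list of regions of anomalous signal was applied, so these runs are not established as GATA2 loci.

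A further 7 of the other 59 runs held a member under 0.5 or over 2 times the usual width. In chr1:143957211-143974433, which lay 1.42 Mb from a long stretch, the 5 peaks were 70 to 254 bp wide with scores up to 417, and the median ratio to the usual width was 0.35. The shortest run of all, chr22:18876793-18884176, held 7 peaks in 7.38 kb with a median distance of 1.38 kb and a median ratio of 0.74. Both were narrow for their score. Without the 5 runs beside long stretches, 59 runs and 319 members remained, with a median length of 26.7 kb, a median distance of 6.46 kb and a median score of 275, close to the values of the whole set.

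The surroundings of the runs were ordinary in score. This was measured on peaks within 500 kb on either side, leaving out the run itself. The flanks can hold members of other runs, as for the 2 neighbouring runs on chromosome 10. The median score of these flanking peaks had a middle value of 206 over the 64 runs (middle 50% from 176 to 266). Around all autosomal peaks, with their own linked set left out, it was 218 (179 to 267), and around the 102 lower-scoring runs 174 (137 to 219). The middle ranges around high-scoring runs and around any autosomal peak thus overlapped almost fully. Flanks were at or above the autosomal median for 29 of the 64 runs, 18502 of 35459 autosomal peaks and 28 of the 102 lower-scoring runs. With the peaks of all autosomal runs of 5 or more left out, the middle value around high-scoring runs was 213. The flanks of all 5 runs beside long stretches were below it. The highest flank, at 623, belonged to the even run chr11:9845469-9868338.

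The density of flanking peaks was close to that around lower-scoring runs. A median of 17 peaks per Mb (middle 50% from 13 to 22) lay around high-scoring runs, 18 (12 to 25) around lower-scoring runs and 14 (10 to 19) around all autosomal peaks. With the peaks of all autosomal runs of 5 or more left out, these medians were 15, 13.5 and 14 per Mb. Most of the higher density around runs was thus in peaks of other runs. With only the run itself left out, the densest flank, 38 per Mb, was that of the PRKD1 run, and the NAALADL2 run had 35. Windows around neighbouring peaks overlap and are not independent, so no test was made. High-scoring runs were seldom close to each other: on 1 chromosome, the nearest were 0.0931 Mb apart, the 2 beside the long stretch of chromosome 10, followed by 0.522 Mb on chromosome 1 between the runs that begin at 143957211 and 144496380.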

How the data were processed

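Per the submitters' processing notes, Bowtie was used and the build was hg19. Per the peak names, MACS was the peak caller. The deposited list gives each peak 1 score, the authors' value. Versions, any control library, pooling of replicates and depth are not known from the sources used here. Starts were made 1-based. Intervals are at the 95% level, Wilson for shares and by order statistics (exact binomial) for medians. The upper limits for chromosomes 19 and 21 are not Wilson limits but 3 divided by the number of peaks. The linking step was tested on simulated data. Long peak-free stretches are those over 2.5 Mb between neighbouring peaks. Chromosomes 13, 14, 15 and 22 had none by this definition, so the distance is undefined there and their runs are grouped with those over 1 Mb away. Named runs are the 10 with most peaks, the 10 of highest median score, the 3 longest, the 3 most closely spaced and the 3 on each side of the score limit. Other runs in the text (isolated, even, steep, narrow or sharing a block) were chosen after their values were seen. The members, limits and gene lists were chosen with earlier results of these data known. No hg19 genome or annotation was used here, so no sequence is printed. Gene names at runs come from general knowledge of the hg19 map, were named only where placement was sure, and are not a computed annotation. A RefSeq table of GRCh38.p14 was used only to check that all 13 symbols are on the run's chromosome. Python 3.11.15, numpy 2.4.6, pandas 2.3.3, scipy 1.17.1 and matplotlib 3.10.9 were used.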

Additional observations from a re-analysis of the deposited data

How the results depend on the processing

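Of 72 alternative values (8 results under 9 settings), 50 lay inside the main 95% interval (for counts, within 1.5 times the main count) and 22 outside. A further alternative, chosen after seeing the data, left the peaks of all runs of 5 or more out of the flanks and gave a median flank score of 213 against 206, inside the interval. Linking at 10 kb gave 33 runs with 192 peaks, a median length of 24.1 kb and a median distance of 4.92 kb, and linking at 15 kb gave 100 runs with 572 peaks, 31.7 kb and 6.92 kb. Sets of 4 or more gave 208 runs with 937 peaks and 20.2 kb. Sets of 6 or more gave 16 runs with 121 peaks, 36.9 kb, a median distance of 4.50 kb and 14.05% of members under 100. A median score limit of 150 gave 99 runs with 588 peaks and a distance of 5.04 kb, and a limit of 250 gave 42 runs with 224 peaks and a median width of 343.5 bp. Wider or looser rules admit more runs by construction. Merging close peaks, linking by edges and leaving out peaks beside long stretches moved no value past these bounds. The share of runs with the highest peak in the interior (59.4%) and the ratio of the highest to the second score (1.34) stayed within their intervals in all 9 settings. Alternatives on genes and sequence were not run, since they need an hg19 genome or annotation. No paired analysis was possible because the deposited list holds no value per replicate, and for the same reason none was left out. Depth is unknown and limits what absence of a peak shows.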
